A study of Homo sapiens with 2 samples.

Results

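The 10 genes described here encode aldehyde dehydrogenases: ALDH1A1, ALDH1A3, ALDH1B1, ALDH2, ALDH3A1, ALDH3A2, ALDH3B1, ALDH7A1, ALDH9A1 and ALDH16A1. They were taken by gene symbol from a table of 13137 genes, and all 10 had a row. A549, a lung adenocarcinoma cell line, was profiled by digital gene expression (DGE), which samples 1 short sequence tag per mRNA, so that levels are not scaled by gene length. The study asked which genes depend on the transcription factor SOX2 in these cells. There were 2 libraries with 1 per condition, labelled shRNA-SOX2 and shRNA-Con, the latter called the control here. Both came from A549 cells infected with lentivirus and selected with puromycin as polyclonal lines, carrying a short hairpin RNA under a doxycycline-inducible H1TetO promoter, directed at SOX2 or with a scrambled sequence. Both lines were given doxycycline for 4 days before RNA extraction, so the control also carried an induced hairpin. Each hairpin was in a line of its own, and a difference between the lines cannot be told apart from one due to the hairpin.

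Aldehyde dehydrogenases oxidize reactive aldehydes to carboxylic acids, mostly with NAD or NADP as cofactor. Members of the ALDH1A group make retinoic acid from retinaldehyde, while others clear aldehydes that arise from lipid peroxidation, ethanol, amino acids or polyamines. High aldehyde dehydrogenase activity, to which ALDH1A1 is a well-known contributor, is widely used to isolate stem-like cells from lung and other cancers, and ALDH1A1 and ALDH3A1 are abundant in A549.

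The libraries held 2304184 gene tags for shRNA-Con and 2093816 for shRNA-SOX2. For SOX2 itself 16 tags were counted in the control and 23 in the library labelled shRNA-SOX2. Their ratio was 1.58, with a 95% interval of 0.80 to 3.20 (adjusted p = 0.333, two-sided Fisher's exact test). Within counting error, the lower end of 0.80 does not reach a strong reduction of the SOX2 mRNA between these libraries. The interval does not cover a difference between the lines or cultures, so the effect of the hairpin on this mRNA was not tested. The study itself checked the silencing of SOX2 by Western blotting of the protein, which is not analysed here. Among the 6 epithelial markers checked, KRT8, KRT18, KRT7, KRT19 and CDH1 had at least 35 tags in each library and EPCAM had 8 and 4. Leukocyte markers summed to 4 and 11 tags, the endothelial marker with a row to 3 and 0, and fibroblast markers to 44 and 45, nearly all from COL1A1. Each gene's tags were tested between the libraries with Fisher's exact test (two-sided), adjusted by the Benjamini-Hochberg method over all 13137 genes, at a false discovery rate (FDR) of 0.001. With 1 library per condition there is no replicate. The test compares these libraries and not the conditions, and all intervals are 95% Clopper-Pearson intervals that cover counting error only. In the following, a gene that rose or fell is one that passed this test, and every ratio has the control as its denominator.

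Of the 10 aldehyde dehydrogenases, 5 rose, 0 fell and 5 did not pass the test. The genes that rose were ALDH1A1, ALDH3A1, ALDH3B1, ALDH1B1 and ALDH9A1, by ratios of 1.80 to 2.42. Over all genes, 9.53% rose and 12.2% fell, and the counts of each gene list below are to be read beside these shares. Among the 7691 genes that reached 60 tags over both libraries, which is the total of the least abundant of the 10, 14.7% rose and 19.6% fell. The median log2 fold change of the 10 genes was 0.90, beside -0.10 for the 10045 genes of 20 or more tags and -0.12 for the 7691. A log2 fold change of at least 1 was found for 4 of the 10 genes and for 8.11% of the 7691.

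Sequence immediately upstream of the transcription start is shown for the 3 genes with a promoter entry that rose by a log2 fold change of more than 1, and for ALDH7A1, which had the lowest ratio of the 10 and did not pass the test. Each is the 250 bases before the RefSeq start in GRCh38.p14, written 5′ to 3′ on the gene's strand. Capitals mark CCAAT, on either strand, and CCATTGT, a sequence of the kind bound by SOX-family proteins.
ALDH1A1 (chr9:72953054-72953303, minus strand): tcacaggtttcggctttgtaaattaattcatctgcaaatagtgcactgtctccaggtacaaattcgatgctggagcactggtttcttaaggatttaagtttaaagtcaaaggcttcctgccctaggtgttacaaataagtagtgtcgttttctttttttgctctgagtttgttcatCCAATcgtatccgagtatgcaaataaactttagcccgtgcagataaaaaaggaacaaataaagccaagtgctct
ALDH1B1 (chr9:38392452-38392701, plus strand): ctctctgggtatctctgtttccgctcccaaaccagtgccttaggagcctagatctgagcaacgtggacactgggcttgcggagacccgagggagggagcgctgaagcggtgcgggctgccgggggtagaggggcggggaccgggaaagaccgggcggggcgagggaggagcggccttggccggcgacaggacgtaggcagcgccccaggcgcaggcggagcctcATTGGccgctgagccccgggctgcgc
ALDH9A1 (chr1:165698563-165698812, minus strand): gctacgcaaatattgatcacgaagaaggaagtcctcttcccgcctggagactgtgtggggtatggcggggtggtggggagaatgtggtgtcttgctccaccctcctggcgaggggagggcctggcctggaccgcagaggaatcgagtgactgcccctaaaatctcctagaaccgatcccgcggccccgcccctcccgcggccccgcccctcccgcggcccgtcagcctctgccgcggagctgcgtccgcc
ALDH7A1 (chr5:126595220-126595469, minus strand): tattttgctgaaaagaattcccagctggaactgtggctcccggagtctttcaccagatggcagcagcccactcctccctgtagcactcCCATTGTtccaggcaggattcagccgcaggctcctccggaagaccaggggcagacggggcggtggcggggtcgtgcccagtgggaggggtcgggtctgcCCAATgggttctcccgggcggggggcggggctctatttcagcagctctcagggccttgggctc

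Promoter entries matched 7 of the 10 genes, with 9 windows among them, and there was none for ALDH2, ALDH3A1 and ALDH16A1. Each window held 250 bases before and 50 after the start, and both strands were searched. CCAAT was found in 5 of the 9 windows, each of a different gene, beside 34.6% of all 35116 promoters. It began 74 bases before the start in ALDH1A1, 71 in ALDH1A3, 63 in ALDH7A1, 30 in ALDH3A2 and, on the opposite strand, 26 in ALDH1B1, so it was present in genes that rose and in genes that did not pass the test. CCATTGT was found in 1 of the 9 windows, 162 bases before the start of ALDH7A1, and in 3.16% of all promoters. The antioxidant response element core TGACNNNGC (13.3% of all promoters), the aryl hydrocarbon receptor motif TNGCGTG (5.51%) and TATAAA (11.5%) were in 0 of the 9 windows. These letters overlap no other motif searched in the sequences shown, and a match is a description of the sequence and not a binding site. The 250 bases upstream of ALDH1A1 had a GC content of 38.4%, at percentile 10.1 of all promoters. The 250 upstream bases of the other 8 windows had 55.6% to 82.4%, and the median of all promoters was 58%.

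The ALDH1A genes act on retinaldehyde. ALDH1A1, a cytosolic enzyme, was the most abundant of the 10 in both libraries, with 7035 tags in the control and 14268 in the library labelled shRNA-SOX2. The normalised tag count (tags per 1000000 gene tags) was 3053 and 6814. The ratio was 2.23 (2.17 to 2.30), a log2 fold change of 1.16, and its p-value was below the smallest number the program can write. ALDH1A1 moved from rank 22 to rank 8 of all genes by tag number and from 0.305% to 0.681% of all gene tags. Of the 9 genes that reached its summed tag number, itself included, 2 others had a log2 fold change at least as large. ALDH1A3, which also makes retinoic acid, was the least abundant of the 10, with 18 and 42 tags, normalised counts of 7.81 and 20.1. Its ratio of 2.57 was the highest of the 10 but had a wide interval of 1.45 to 4.74, and it did not pass the FDR of 0.001 (adjusted p = 0.00267, Fisher's exact test). The 95% interval of the ALDH1A3 ratio includes the ALDH1A1 ratio of 2.23, so their ratios were not told apart at this depth.

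The ALDH3 genes oxidize medium-chain and long-chain aldehydes, including products of lipid peroxidation. ALDH3A1, best known from the cornea and from tumor cells, had 1736 tags in the control and 3071 in the library labelled shRNA-SOX2, normalised counts of 753 and 1467. It rose by a ratio of 1.95 (1.83 to 2.07, adjusted p = 1.06e-111, Fisher's exact test), and it moved from rank 150 to rank 72. ALDH3B1, which oxidizes lipid-derived aldehydes, had 328 and 536 tags, normalised counts of 142 and 256. It rose by a ratio of 1.80 (1.56 to 2.07, adjusted p = 3.82e-16, Fisher's exact test). ALDH3B1 has a close paralog, ALDH3B2, not analysed here, so tags shared by the pair are uncertain. ALDH3A2, the fatty aldehyde dehydrogenase of the endoplasmic reticulum, which is deficient in Sjögren-Larsson syndrome, differed from its close relative ALDH3A1. It had 614 and 609 tags, normalised counts of 266 and 291, a ratio of 1.09 (0.97 to 1.22, adjusted p = 0.235, Fisher's exact test). The upper end of this interval lies below the lower ends for ALDH3A1 and ALDH3B1.

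ALDH1B1 and ALDH2 are closely related mitochondrial enzymes that oxidize acetaldehyde, and their tags did not move alike. ALDH1B1 had 122 tags in the control and 256 in the library labelled shRNA-SOX2, normalised counts of 52.9 and 122. It rose by a ratio of 2.31 (1.85 to 2.89, adjusted p = 6.00e-14, Fisher's exact test). ALDH2 had 150 tags in each library, normalised counts of 65.1 and 71.6. Its ratio of 1.10 (0.87 to 1.39) did not pass the test (adjusted p = 0.566, Fisher's exact test), and its interval lies below that of ALDH1B1.

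The remaining genes act on amino acid and amine derivatives or have no well-defined substrate. ALDH9A1, which oxidizes aminoaldehydes on the routes to carnitine and gamma-aminobutyric acid, had 117 tags in the control and 257 in the library labelled shRNA-SOX2, normalised counts of 50.8 and 123. It rose by a ratio of 2.42 (1.94 to 3.03, adjusted p = 4.66e-15, Fisher's exact test). ALDH7A1, the antiquitin of lysine breakdown, had 189 and 142 tags, normalised counts of 82.0 and 67.8, with a ratio of 0.83 (0.66 to 1.03, adjusted p = 0.178, Fisher's exact test). ALDH7A1 has processed pseudogenes, so its tags may be shared with them. ALDH16A1, an atypical member thought to lack catalytic activity in mammals, had 130 and 108 tags, normalised counts of 56.4 and 51.6, with a ratio of 0.91 (0.70 to 1.19, adjusted p = 0.643, Fisher's exact test). In all, 6 of the 10 genes had an interval of the ratio wholly above 1, and the interval of the other 4 included 1.

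**Figure D1:**
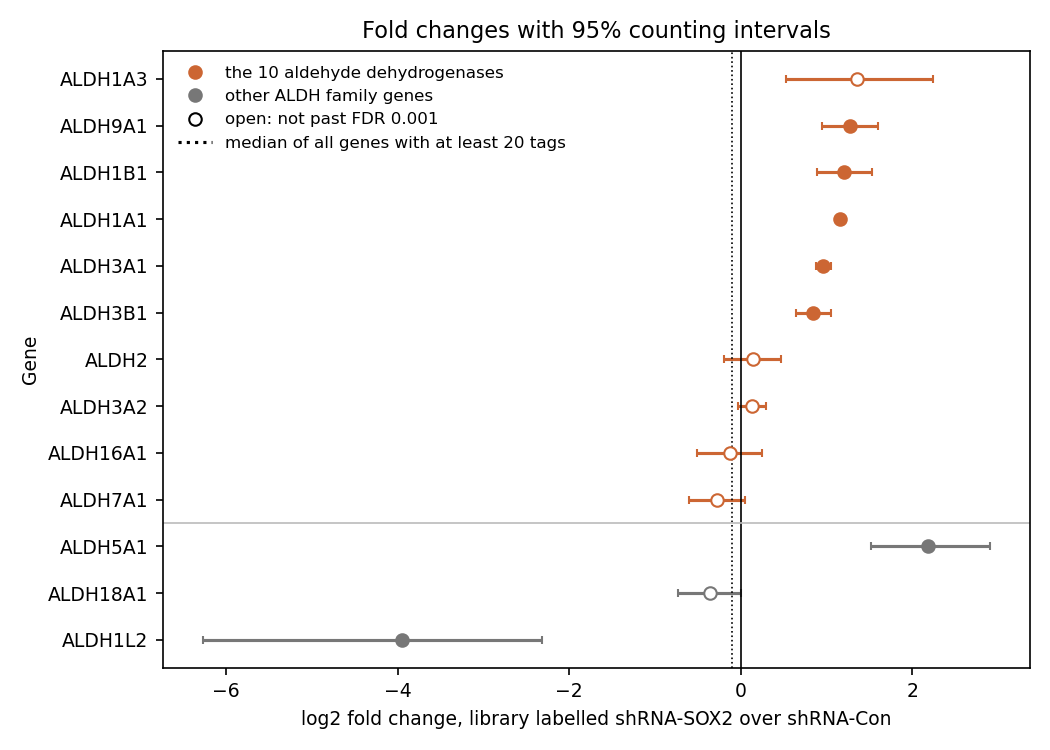
The log2 fold change (library labelled shRNA-SOX2 over the control) with its 95% counting interval, for the 10 aldehyde dehydrogenases (orange) and the other family genes with at least 20 tags (grey), open where the FDR of 0.001 was not passed. ALDH1A3, ALDH9A1, ALDH1B1, ALDH1A1, ALDH3A1 and ALDH3B1 lie between 0.85 and 1.36, and the other 4 lie between -0.27 and 0.14.

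Cellular compartments were taken from the deposited annotation. Of the 3 genes annotated to mitochondria, ALDH1B1 rose and ALDH2 and ALDH7A1 did not pass the test. ALDH1A1, ALDH3A1 and ALDH9A1, annotated to the cytosol, all rose, and ALDH3A1 and ALDH3A2 both carried an endoplasmic reticulum term. ALDH1A3, ALDH3B1 and ALDH16A1 carried no term for these compartments, and of these only ALDH3B1 rose. All 10 carried the oxidation reduction term of the deposited annotation. Among the 236 other genes with this term and at least 60 tags, 59 rose (25.0%) and 34 fell (14.4%), with a median log2 fold change of 0.12.

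The order of the levels changed below the most abundant genes. In shRNA-Con the order was ALDH1A1, ALDH3A1, ALDH3A2, ALDH3B1, ALDH7A1, ALDH2, ALDH16A1, ALDH1B1, ALDH9A1 and ALDH1A3, and the neighbours from ALDH7A1 to ALDH9A1 had overlapping intervals. In the library labelled shRNA-SOX2 it was ALDH1A1, ALDH3A1, ALDH3A2, ALDH3B1, ALDH9A1, ALDH1B1, ALDH2, ALDH7A1, ALDH16A1 and ALDH1A3. There, ALDH3A2 and ALDH3B1 were no longer separated by their intervals, and ALDH9A1 and ALDH1B1, with normalised tag counts of 123 and 122, stood above ALDH2 at 71.6. The highest level was 391 times the lowest in shRNA-Con and 340 times in the library labelled shRNA-SOX2.

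Together the 10 genes had 10439 tags in shRNA-Con, or 0.453% of gene tags (0.444 to 0.462), and 19439 in the library labelled shRNA-SOX2, or 0.928% (0.915 to 0.941). The ratio of these shares was 2.05 (2.0 to 2.1). ALDH1A1 alone made up 7233 of the 9000 additional tags, or 80.4%. Without ALDH1A1 the sums were 3404 and 5171 tags and the ratio was 1.67 (1.6 to 1.75). In RNA from a whole culture, more cells that express a gene and more RNA per cell cannot be told apart.

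The make-up of these tags does not depend on how the libraries are scaled. ALDH1A1 took 67.4% of them (66.5 to 68.3) in shRNA-Con and 73.4% (72.8 to 74.0) in the library labelled shRNA-SOX2. The share of ALDH3A1 was 16.6% and 15.8%, with overlapping intervals, and together these genes held 84.0% and 89.2%. ALDH3A2 went from 5.88% to 3.13%, ALDH7A1 from 1.81% to 0.730%, ALDH2 from 1.44% to 0.772% and ALDH16A1 from 1.25% to 0.556%, each without overlap of the intervals. For ALDH2 (150 and 150 tags) and ALDH3A2 (614 and 609) the lower shares restate the rise of the other genes. Their tags hardly differed, and their share became smaller as the sum grew. ALDH7A1 (189 and 142) and ALDH16A1 (130 and 108) also had fewer tags of their own, though neither passed the test.

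**Figure D2:**
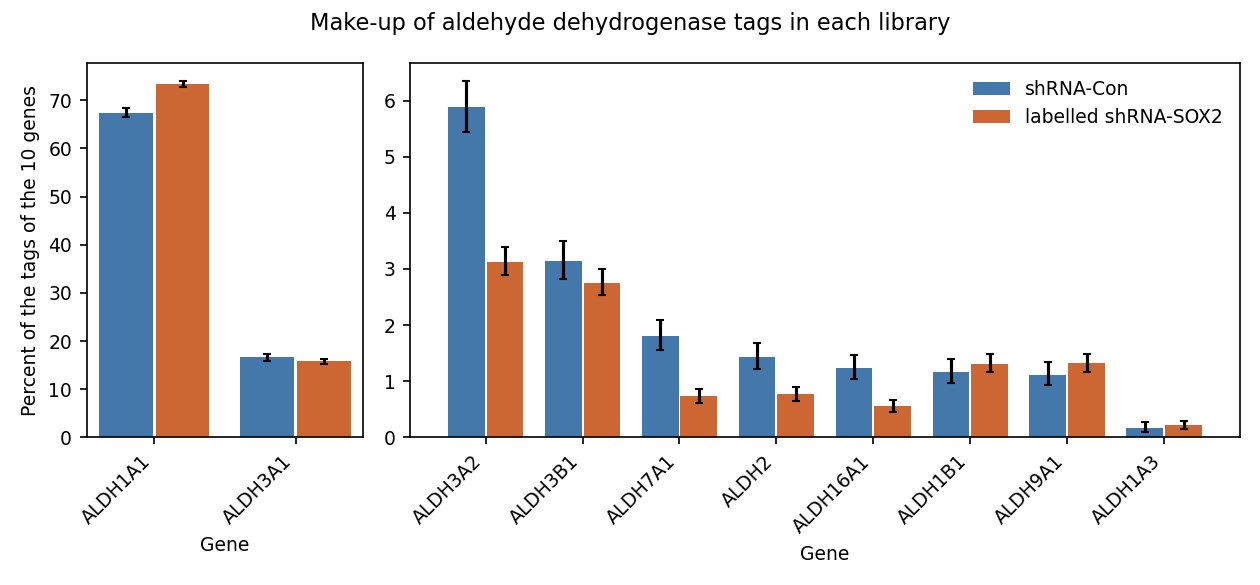
Percent of the tags of the 10 aldehyde dehydrogenases taken by each gene in shRNA-Con (blue) and the library labelled shRNA-SOX2 (orange), with 95% counting intervals and separate axes for the left and right panels. ALDH1A1 stands at 67.4% and 73.4%, while ALDH3A2, ALDH7A1, ALDH2 and ALDH16A1 take smaller shares in the library labelled shRNA-SOX2.

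The 5 genes nearest to ALDH1A1 in log2 fold change, among 27 with 0.5 to 2 times its tags, were RPLP1, MGST1, KRT8, TPT1 and RPS4X. MGST1, a membrane-bound glutathione transferase, had 3408 and 8350 tags and rose by a log2 fold change of 1.43, and RPLP1, a ribosomal stalk protein, had 12274 and 24377 tags and rose by 1.13. RPLP1, TPT1 and RPS4X have many processed pseudogenes, so their tags are uncertain. Likeness here rests on 1 fold change between the same libraries.

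Of 9 other human ALDH family genes listed, 6 had a row, and of these 1 rose, 2 fell and 3 did not pass the test. ALDH5A1, the succinic semialdehyde dehydrogenase of gamma-aminobutyric acid breakdown, rose from 23 to 95 tags (log2 fold change 2.18, adjusted p = 4.73e-12 by Fisher's exact test). ALDH1L2, the mitochondrial 10-formyltetrahydrofolate dehydrogenase of one-carbon metabolism, fell from 51 to 3 tags, a ratio of 0.0647 with an interval of 0.013 to 0.20 (adjusted p = 2.00e-10, Fisher's exact test). ALDH4A1, of proline breakdown, fell from 15 tags to 0 (adjusted p = 0.000386, Fisher's exact test), and against a floor of 3 tags its log2 fold change was -2.18 or lower. ALDH18A1, a proline synthesis enzyme named with the family, had 154 and 109 tags (log2 fold change -0.36, adjusted p = 0.110, Fisher's exact test). ALDH6A1 had 3 and 4 tags and ALDH8A1 0 and 2, too few to compare. The log2 interval of ALDH5A1 (1.52 to 2.91) overlaps those of ALDH1A3, ALDH9A1 and ALDH1B1, the last only narrowly, with an upper end of 1.53. Whether ALDH5A1 differed from these genes was not tested. These 6 genes together had 246 and 213 tags.

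Aldehyde dehydrogenases act on aldehydes that other enzymes release, such as amine oxidases. Of 10 aldehyde-producing enzymes with a row, 0 rose and 1 fell. This was SMOX, the spermine oxidase that releases 3-aminopropanal, with 631 and 99 tags (log2 fold change -2.53, adjusted p = 5.87e-83 by Fisher's exact test). The 7 of them with at least 20 tags had a median log2 fold change of 0.10.

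Among 20 genes of retinoid handling with a row, 1 rose, 3 fell and 16 did not pass the test, where 9.53% of all genes rose and 12.2% fell. The median log2 fold change of the 16 with at least 20 tags was 0.01. RARB, a retinoic acid receptor and a classical retinoic acid target, rose from 53 to 148 tags (log2 fold change 1.62, adjusted p = 1.51e-12, Fisher's exact test). RARA, another retinoic acid receptor, fell from 143 to 55 tags (log2 fold change -1.24, adjusted p = 1.26e-07, Fisher's exact test). RDH10, which makes retinaldehyde from retinol, fell from 99 to 47 tags, and FABP5, a fatty acid binding protein that also carries retinoic acid, fell from 86 to 34.

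Other enzymes that clear reactive carbonyls were counted in the same way. Of 16 with a row, 4 rose, 5 fell and 7 did not pass the test, with a median log2 fold change of 0.25 over the 15 with at least 20 tags. All 5 that fell were aldo-keto reductases, which reduce aldehydes and ketones to alcohols with NADPH. AKR1B10 had 6039 and 4581 tags (log2 fold change -0.26) and AKR1B1 4052 and 2647 (-0.48). AKR1C3 fell from 3385 to 1492 tags (-1.04) and AKR1C2 from 770 to 286 (-1.29). The AKR1C genes, and AKR1B10 with its paralog AKR1B15, are nearly identical in sequence, so their tags may be split between them. AKR1A1 fell from 155 to 76 tags (-0.89). PTGR1, a reductase of unsaturated aldehydes and ketones, had 958 and 1048 tags (0.27), and DCXR, a carbonyl reductase, had 216 and 343 (0.81), and both rose. With fewer tags, GSTA4 rose from 30 to 63 (1.21) and CBR3 from 12 to 38 (1.80).

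NRF2, the regulator of the antioxidant response, is constitutively active in A549, and aldehyde dehydrogenases have been named among its targets. Of 22 other NRF2 targets, 6 rose, 9 fell and 7 did not pass the test, and the median log2 fold change was -0.02. The aldo-keto reductases counted above among the carbonyl-clearing enzymes were not on this list. NQO1, a quinone reductase, rose from 4179 to 6200 tags (log2 fold change 0.71) and HMOX1, heme oxygenase, from 3437 to 5039 (0.69). Ferritin genes fell, FTH1 from 69683 to 39799 tags (-0.67) and FTL from 55743 to 46196 (-0.13), though both have many pseudogenes. TXNRD1, thioredoxin reductase, had 4369 and 3599 tags (-0.14) and PGD, of the pentose phosphate pathway, 3374 and 2483 (-0.30), and both fell. The largest rise of the list was that of GPX2, from 1385 to 4079 tags (log2 fold change 1.70). Its largest fall was that of ABCC3, from 414 to 209 (-0.85).

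ALDH3A1 is a classical target of the aryl hydrocarbon receptor. Of 7 genes on the list of that pathway with a row, 2 rose, 1 fell and 4 did not pass the test. Among these 4 were TIPARP (73 and 84 tags) and CYP1B1 (45 and 54). The receptor gene AHR fell from 225 to 113 tags (log2 fold change -0.86, adjusted p = 1.19e-06, Fisher's exact test). CYP1A1, the best-known target, had 0 tags in the control and 15 in the library labelled shRNA-SOX2 (adjusted p = 8.59e-05, Fisher's exact test), at least 5.50-fold higher against a floor of 3 tags. NQO1, which both lists share, was the other that rose.

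ALDH1A1 is used as a stem cell marker, and the other stem cell markers moved both ways. Of 9 with a row, 3 rose, 3 fell and 3 did not pass the test, with a median log2 fold change of 0.44 over the 7 with at least 20 tags. The surface markers CD24 and CD44 rose, from 1185 to 2308 tags (log2 fold change 1.10) and from 875 to 1080 (0.44), and the drug transporter ABCG2 rose from 96 to 150 (0.78). The nuclear factors with a row on this list fell, MYC from 542 to 125 tags (-1.98), BMI1 from 139 to 64 (-0.98) and KLF4 from 81 to 18 (-2.03). SOX2, a nuclear factor that was not on the list, had 16 and 23 tags and did not pass the test. Among the epithelial keratins, KRT8 rose from 7702 to 12729 tags and KRT19 from 35 to 127, while KRT18 fell from 10318 to 7887 and KRT7 from 3899 to 1606. Whether these shifts have a part in the aldehyde dehydrogenase values was not tested.

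These calls rest on counting error alone. If a biological coefficient of variation of 0.2 was assumed, 0 of the 10 genes passed edgeR's exact test, with adjusted p from 0.0629 (ALDH9A1) to 0.257 (ALDH3B1) among the 5 that had risen. Scaling to all clean tags of the library in place of gene tags moved the median of all genes from -0.10 to -0.22, and relative to the median of -0.10 the log2 fold change of ALDH1A1 was 1.26.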

How the data were processed

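DGE tags of oligo(dT)-selected mRNA from 4 µg total RNA of each line were counted per Entrez Gene ID by the authors and deposited as raw tag counts. The deposited TPM is the authors' count divided by the clean tags of the library, and served to recover 3516267 clean tags for shRNA-Con and 3456233 for shRNA-SOX2, of which 65.5% and 60.6% lay on genes of the table. hg19 is named in the submitters' processing notes, and the aligner is not given in the sources used here. The deposited log2 ratio, p-value and FDR columns hold the study's own comparison and were not used. The value columns carry abbreviations: SC was taken to stand for shRNA-Con, which leaves S1 for shRNA-SOX2. The 19 rows with no gene symbol, with 0.0535% and 0.0372% of gene tags, were kept under their Entrez Gene IDs.

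Shares of gene tags were compared by Fisher's exact test (two-sided), and a count under 3 was set to 3 for fold changes. An analysis with replicate error (edgeR quasi-likelihood) was impossible with 1 library per condition. Scripts were tested on simulated data. Alternatives were TMM and median-ratio scaling, clean-tag scaling, leaving out genes under 10 tags, an FDR of 0.05, the Audic and Claverie test, edgeR's exact test under assumed coefficients of variation (0.1, 0.2 and 0.4), a minimum log2 fold change of 1, and 0.5 added to each count. Python 3.11.15, scipy 1.17.1, R 4.3.3, edgeR 4.0.16 and DESeq2 1.42.0 were used. The members and lists were chosen with earlier results of these data known. Named were all members, other ALDH genes with tags, SOX2, up to 6 genes with the most tags among those called in each list, and the 5 genes nearest to ALDH1A1. Also named were GPX2 and ABCC3, the extremes of the NRF2 list, and TIPARP and CYP1B1 of the aryl hydrocarbon receptor list. The remaining called genes of the carbonyl-clearing list, AKR1A1, GSTA4 and CBR3, were named too.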

Additional observations from a re-analysis of the deposited data

How the results depend on the processing

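The count of aldehyde dehydrogenases past the threshold was 5, all higher, and the same 5 genes passed with TMM, median-ratio or clean-tag scaling, with a minimum of 10 tags and with the test of Audic and Claverie. At an FDR of 0.05 ALDH1A3 joined them, giving 6. With the FDR threshold as reported, and not 0.05, and a log2 fold change of 1 or more also required, 3 passed (ALDH1A1, ALDH1B1 and ALDH9A1). By the exact test of edgeR under an assumed coefficient of variation of 0.1, 4 passed, without ALDH3B1 (adjusted p = 0.00214), and with 0.2 or 0.4, 0 passed. Of the other family genes, 3 passed as reported, 1 with an assumed 0.2 and 0 with 0.4. At 0.4, 0 of the 10 genes and 627 of all 13137 genes had an unadjusted p under 0.05 by this exact test. Of all genes, 0 were called at 0.4, 113 at 0.2 and 2849 as reported. The ratio of the summed tags was 2.05 as reported, 2.16 with TMM, 2.15 with the median ratio, 1.89 with clean tags and 1.67 without ALDH1A1. No log2 fold change of the 10 genes changed sign under any alternative run. The spread between cultures is unknown, so no alternative replaces a replicate. No paired analysis was possible because there was 1 library per condition, which also meant that none could be left out.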
